A study of Mus musculus with 32 samples.

Results

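The transporters described here are the 10 solute carrier genes through which the intestinal epithelium takes up sugars, small peptides and amino acids: Slc5a1, Slc2a5, Slc2a2, Slc15a1, Slc7a9, Slc3a1, Slc6a19, Slc1a1, Slc7a7 and Slc7a8. They were chosen by gene symbol out of 23236 symbols in the expression tables, and all 10 had 1 record of good status in each of the 32 libraries. Total RNA depleted of ribosomal RNA had been sequenced from dissected digestive tract regions of percc1-/- mice and their wild-type counterparts. The percc1-/- mice are homozygous for a germline deletion in which 1512 bp of chromosome 17 (stated as 25175032 to 25176543 on mm9) gave way to a loxP site. Targeting was done in W4/129S6 embryonic stem cells, and both genotypes come from a mixed 129SvEv and C57BL/6 background. The deletion is present in all cells and not in the gut epithelium alone. Whether tissue outside the epithelium is altered was not tested.

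Every region and stage was sampled once per genotype, which made 16 pairs. The small intestine gave 14 libraries: its top part at postnatal days 1, 5 and 15 (P1, P5 and P15) and its bottom part at P1, P5, P10 and P20. The stomach gave 10 libraries, taken whole at P1 and P5 and as its bottom part at P10, P15 and P20. The large bowel gave 6, from colon with rectum at P1 and from colon and rectum separately at P5, and the whole gut of E14.5 embryos, stomach included, gave 2. The labels do not say whether regions of a stage came from the same animals or whether each library was a separate animal, so p-values measure only the spread between these libraries.

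Absorptive cells of the intestine move nutrients in a pair of steps, from the lumen through the brush border membrane and from the cell into the blood through the basolateral membrane. Slc5a1 (SGLT1) carries glucose and galactose in together with sodium, Slc2a5 (GLUT5) carries fructose in, and Slc2a2 (GLUT2) lets sugars out towards the blood; Slc2a2 is also a gene of hepatocytes and pancreatic beta cells. Slc15a1 (PEPT1) takes up the short peptides left by digestion. Slc7a9 is the light chain and Slc3a1 (rBAT) the heavy chain of the brush border carrier of cystine and basic amino acids. Slc6a19 (B0AT1) takes up neutral amino acids, and Slc1a1 (EAAT3) takes up glutamate and aspartate. Slc7a7 and Slc7a8 are basolateral light chains, of basic and neutral amino acid exchangers respectively, which share the heavy chain Slc3a2.

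Levels are given as rescaled FPKM: the FPKM (fragments per kilobase of transcript, scaled to sequencing depth) that the authors deposited, divided by 1 factor per library (0.866 to 1.38) so that the median ratio over 10023 genes was level. The deposited scale appeared compressed at its top. The highest single-gene value in a library lay between 62.5 and 204 FPKM, and Actb, one of the most abundant messages of most cells, reached only 37.5 to 73.3 FPKM. The number of fragments per transcript base, estimated from the deposited confidence bounds and a total of 1.08e+07 to 2.44e+07 fragments per library, stayed under 1 for every transporter. In the small intestine it reached 0.971 for Slc7a9, 0.863 for Slc6a19, 0.780 for Slc15a1 and 0.767 for Slc5a1, against 0.139 for Slc2a5. The highest single-gene values lay above 1 on the same estimate, so 1 is not a fixed limit. Differences between high levels may be understated, most for Slc7a9, and this was not tested. How duplicate reads were treated is not given in the sources used.

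**Figure D1:**
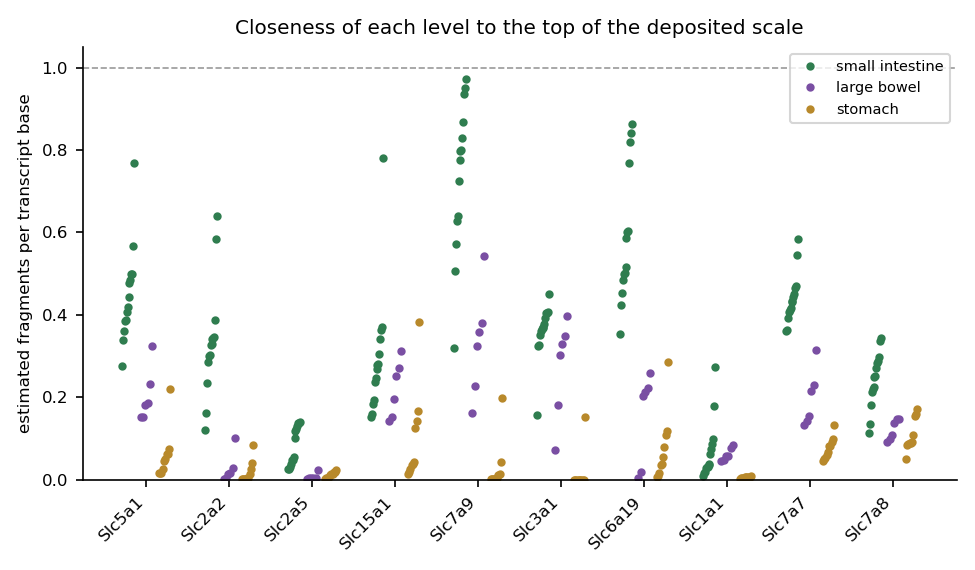
Estimated fragments per transcript base (vertical axis) for the 10 transporters in each small intestine, large bowel and stomach library; each point is 1 library and the dashed line marks 1 fragment per base. Small intestine libraries reach 0.971 for Slc7a9 and stay at or under 0.139 for Slc2a5.

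Markers of the labelled tissue were present in every library, and those of neighbouring organs were not absent. The summed level of 15 enterocyte markers was 460 to 796 FPKM in the small intestine, 200 to 345 in the large bowel and 115 to 251 in the stomach. The 11 stomach markers summed to 131 to 1002 FPKM in the stomach and 5.16 to 271 in the small intestine. In 8 of 16 pairs, 4 of them in the small intestine, the sum of exocrine pancreas, liver or stomach markers differed between the genotypes. The difference was more than 2-fold and the sum reached 30 FPKM. The genotype comparisons over all pairs, in small intestine and in stomach are given with and without these pairs. All 4 small intestine pairs and both stomach pairs of P1 and P5 are among the 8. The comparisons of organs, of parts, of P5 with P1 and of P10 to P20 with P1 and P5 could therefore not be repeated without them. The same holds for the test of whether the genotype difference changed with age. All of these were repeated without each pair in turn. The symbol Percc1 was carried by 0 records. Unnamed records lay wholly inside the stated positions in 4 of 16 percc1-/- libraries and in 0 of 16 wild-type libraries, a sequence that the labels give as deleted, and the build of the stated positions is uncertain, so the files gave no check of the deletion.

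The small intestine had the highest mean level of 9 of the 10 transporters when organs were compared at P1 and P5, and Slc1a1 was the exception. All 10 were higher in small intestine than in stomach, from 0.73 log2 units for Slc15a1 to 4.41 for Slc7a9. Against large bowel 8 were higher, Slc1a1 was lower and Slc15a1 did not pass the test. The tests used limma on log2(rescaled FPKM + 1) with stage and genotype as covariates and Benjamini-Hochberg adjustment over all genes, a call being an adjusted p under 0.05. Over all genes 20% were called higher and 23.7% lower in small intestine than in stomach, and the shares against large bowel were 18.1% higher and 20% lower. The median difference of the 10 transporters was 2.32 against stomach and 1.22 against large bowel, beside medians of -0.03 and -0.03 over all genes tested. The added 1 shrinks the fitted difference of genes near 0, and in whole organs fewer absorptive cells and less RNA per cell cannot be told apart.

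**Figure D2:**
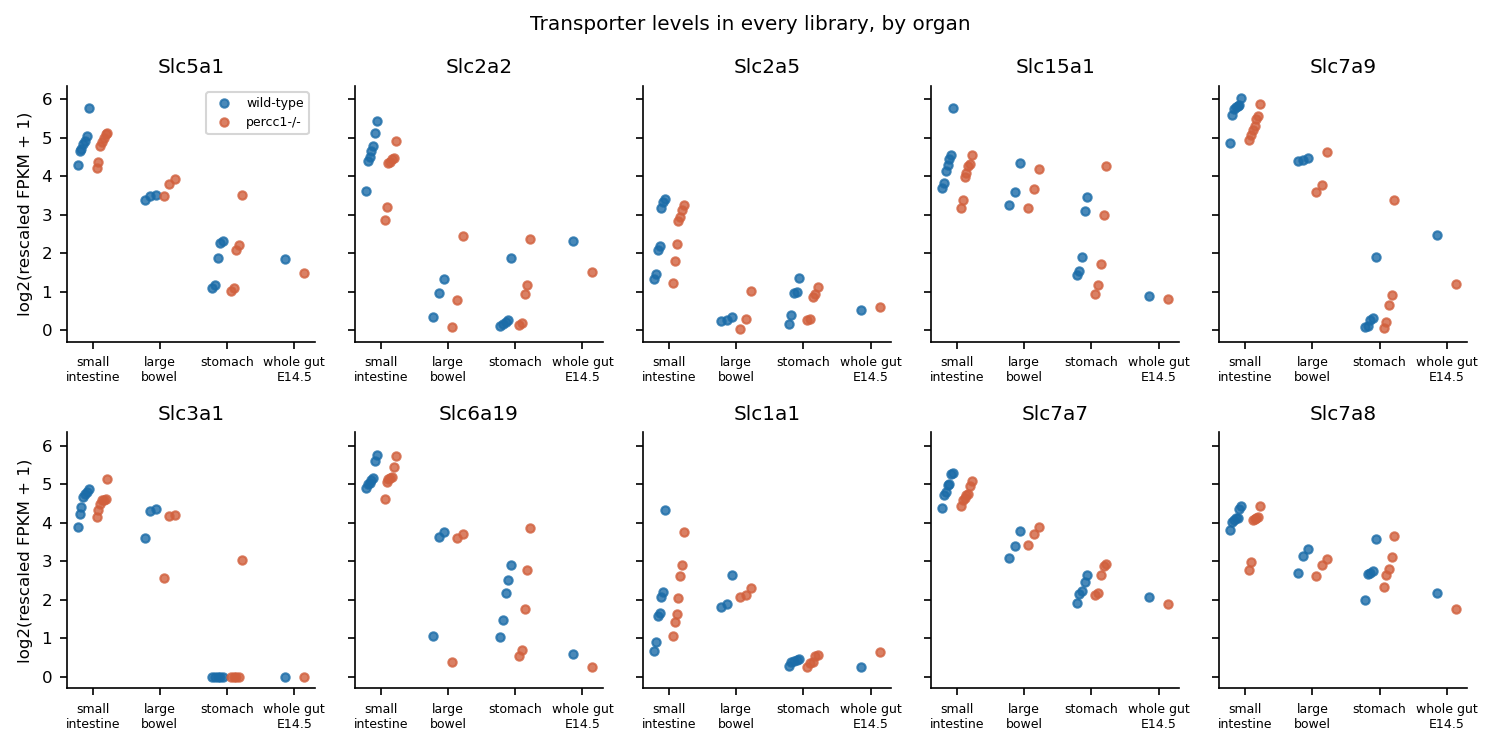
Level of each transporter as log2(rescaled FPKM + 1) in every library, by organ; each point is 1 library, blue for wild-type and orange for percc1-/-. Ages are not marked. Small intestine points of Slc5a1 lie above its stomach points, those of Slc15a1 overlap with its stomach points, and Slc1a1 overlaps between small and large bowel.

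Among the sugar carriers, Slc5a1 stood at 17.5, 28.0 and 53.0 rescaled FPKM (lowest, median and highest of 14 small intestine libraries), at 9.34, 10.3 and 14.1 in the 6 large bowel libraries and at 1.01, 2.93 and 10.5 in the 10 stomach libraries. No large bowel or stomach library reached the lowest small intestine one. At P1 and P5 the means were 27.7 ± 4.31 (SD, n = 8) in small intestine, 11.2 ± 1.85 (n = 6) in large bowel and 5.14 ± 3.58 (n = 4) in stomach. The log2 difference was 1.20 ± 0.11 (SE) from large bowel (adjusted p = 1.59e-05, limma) and 2.36 ± 0.21 from stomach (adjusted p = 1.16e-05, limma).

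Slc2a2 was the sugar carrier with the widest contrast. Its lowest, median and highest small intestine levels were 6.21, 20.8 and 41.8 rescaled FPKM, those of the large bowel 0.0527, 0.843 and 4.41, and those of the stomach 0.0793, 0.181 and 4.12. The groups did not overlap. The log2 difference was 3.43 ± 0.37 from large bowel and 3.48 ± 0.47 from stomach (adjusted p = 3.13e-05 and 0.000159, limma). The stomach library with 4.12 was percc1-/- at P5, where 8 liver markers summed to 236 FPKM against 20.9 in its wild-type pair, and the colon library with 4.41 was percc1-/- at P5, where stomach markers summed to 99.4 against 10.5. Their part in these values was not tested.

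Slc2a5, the fructose carrier, was the lowest sugar carrier in every small intestine library. It ranged from 1.34 to 9.60 rescaled FPKM in the small intestine (median 4.89), from 0.0219 to 1.02 in the large bowel and from 0.116 to 1.55 in the stomach. Small intestine libraries were above all others at P1 and P5, and over all ages the lowest small intestine library lay under the highest stomach library. The log2 difference was 2.12 ± 0.34 from large bowel and 2.26 ± 0.40 from stomach (adjusted p = 0.000413 and 0.000958, limma). Within the stomach it held 0.116 to 0.309 at P1 and P5 (whole organ) and 0.809 to 1.55 at P10 to P20 (bottom part), with no overlap and without a test.

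The peptide carrier Slc15a1 differed least between organs at P1 and P5. Over all ages small intestine libraries held 8.07, 17.3 and 53.9 rescaled FPKM (lowest, median, highest), large bowel libraries 7.97, 11.4 and 19.2, and stomach libraries 0.923, 2.51 and 18.1. Within the stomach it held 6.99 to 18.1 at P1 and P5 (whole organ) and 0.923 to 2.75 at P10 to P20 (bottom part), without a test. Small intestine libraries of P10 to P20 held 9.40 to 53.9. At P1 and P5 the groups overlapped in both comparisons. It was higher in small intestine than in stomach by 0.73 ± 0.24 log2 units (adjusted p = 0.0286, limma), a call lost without the P1 bottom pair (adjusted p = 0.0657), without the P5 top pair (0.0814) or without the P5 stomach pair (0.323). Against large bowel the difference of 0.50 ± 0.24 (95% interval -0.02 to 1.02, adjusted p = 0.112, limma) did not pass, and it passed without the rectum pair (0.77, adjusted p = 0.0204, limma) or without the P5 bottom pair (0.78, adjusted p = 0.00675, limma).

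The cystine carrier's subunits had the largest distance from stomach. Slc7a9 stood at 28.0, 46.4 and 64.6 rescaled FPKM (lowest, median, highest) in small intestine and ranked first of the 10 transporters in 11 of 14 libraries. It stood at 11.02, 20.1 and 23.6 in large bowel and at 0.0398, 0.222 and 9.43 in stomach. The log2 difference was 1.36 ± 0.14 from large bowel and 4.41 ± 0.48 from stomach (adjusted p = 2.40e-05 and 4.34e-05, limma), with no overlap. Slc3a1 stood at 13.7, 23.0 and 34.2 in small intestine and at 4.86, 17.1 and 19.3 in large bowel. It was listed at 0 in 9 of 10 stomach libraries and in both whole gut libraries, and at 7.16 in the percc1-/- stomach at P1. Its small intestine level exceeded that of large bowel by 0.66 ± 0.21 log2 units (adjusted p = 0.0262, limma), with overlapping groups, and the difference from stomach of 3.82 ± 0.44 (adjusted p = 6.10e-05, limma) rests on values listed at 0. The large bowel call was lost without the colon and rectum pair of P1 (adjusted p = 0.0658) without the bottom pair of P1 (0.0542) or of P5 (0.0894) and without the top pair of P5 (0.0780). It was also lost with 1 value per region and stage (0.0994) and in wild-type libraries (0.0718). The ratio of Slc7a9 to Slc3a1 was 1.12 to 2.70 in small intestine (median 2.10) and 0.751 to 2.27 in large bowel (median 1.23). Both ratios are on the deposited scale, which appeared compressed.

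The percc1-/- stomach at P1 stood apart for these genes. It held 9.43 rescaled FPKM of Slc7a9 where its wild-type pair held 0.198, and it had the highest stomach level of Slc5a1 (10.5), Slc15a1 (18.1) and Slc6a19 (13.5). Enterocyte markers in it summed to 199 FPKM against 115 in the wild-type pair, stomach markers to 131 against 351, and exocrine pancreas markers to 16.7 against 129. Its stomach marker sum was the lowest of the 10 stomach libraries. The part of other tissue in these values was not tested. Without that P1 pair the log2 difference between small intestine and stomach was 5.08 for Slc7a9 and 4.49 for Slc3a1.

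Slc6a19, the neutral amino acid carrier, stood at 23.3, 34.6 and 53.0 rescaled FPKM (lowest, median, highest) in small intestine, at 0.305, 11.3 and 12.5 in large bowel and at 0.440, 2.95 and 13.5 in stomach. Small intestine libraries were above every other library. The log2 difference was 2.52 ± 0.51 from large bowel and 2.29 ± 0.20 from stomach (adjusted p = 0.00189 and 1.28e-05, limma). Within the large bowel the 4 libraries with colon held 11.2 to 12.5, and the 2 rectum libraries held 0.305 in percc1-/- and 1.08 in wild-type.

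Slc1a1, the glutamate carrier, was the transporter with the reverse order of small and large bowel. At P1 and P5 it stood at 0.580, 1.82 and 3.13 rescaled FPKM (lowest, median, highest) in the 8 small intestine libraries and at 2.49, 3.26 and 5.24 in the 6 large bowel libraries, so that the groups overlapped. Its small intestine level was lower by 0.73 ± 0.20 log2 units (log2 difference -0.73, adjusted p = 0.0114, limma). The call was lost without the colon and rectum pair of P1 (adjusted p = 0.0988), without the P5 top pair (0.0649) and in wild-type libraries (0.0880). Stomach libraries held 0.181 to 0.474, below every small intestine library, and the difference from stomach was 0.95 ± 0.23 (adjusted p = 0.00585, limma), lost without the P5 stomach pair (0.130) and in wild-type libraries (0.111). At P10 to P20 small intestine libraries held 3.21 to 18.9, a range that reached above all large bowel libraries of P1 and P5.

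The basolateral carriers were higher in small intestine as well. Slc7a7 stood at 19.8, 26.3 and 38.1 rescaled FPKM (lowest, median, highest), against 7.50 to 13.7 in large bowel and 2.77 to 6.59 in stomach, with no overlap. Its log2 difference was 1.24 ± 0.13 from large bowel and 2.55 ± 0.17 from stomach (adjusted p = 2.57e-05 and 3.16e-06, limma). Slc7a8 stood at 5.82, 16.2 and 20.6, against 5.16 to 9.004 in large bowel and 2.95 to 11.6 in stomach, with overlapping groups. Its differences were 1.09 ± 0.20 and 1.51 ± 0.28 (adjusted p = 0.000923 and 0.00130, limma). Without the P1 stomach pair the Slc7a8 difference from stomach was 0.98 and lost its call (adjusted p = 0.0681). Slc3a2, their shared heavy chain, differed less, with 23.3 ± 5.05 in small intestine, 14.2 ± 2.13 in large bowel and 15.4 ± 3.73 in stomach (log2 difference 0.64 ± 0.12 and 0.57 ± 0.14, adjusted p = 0.00106 and 0.00707, limma).

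**Figure D3:**
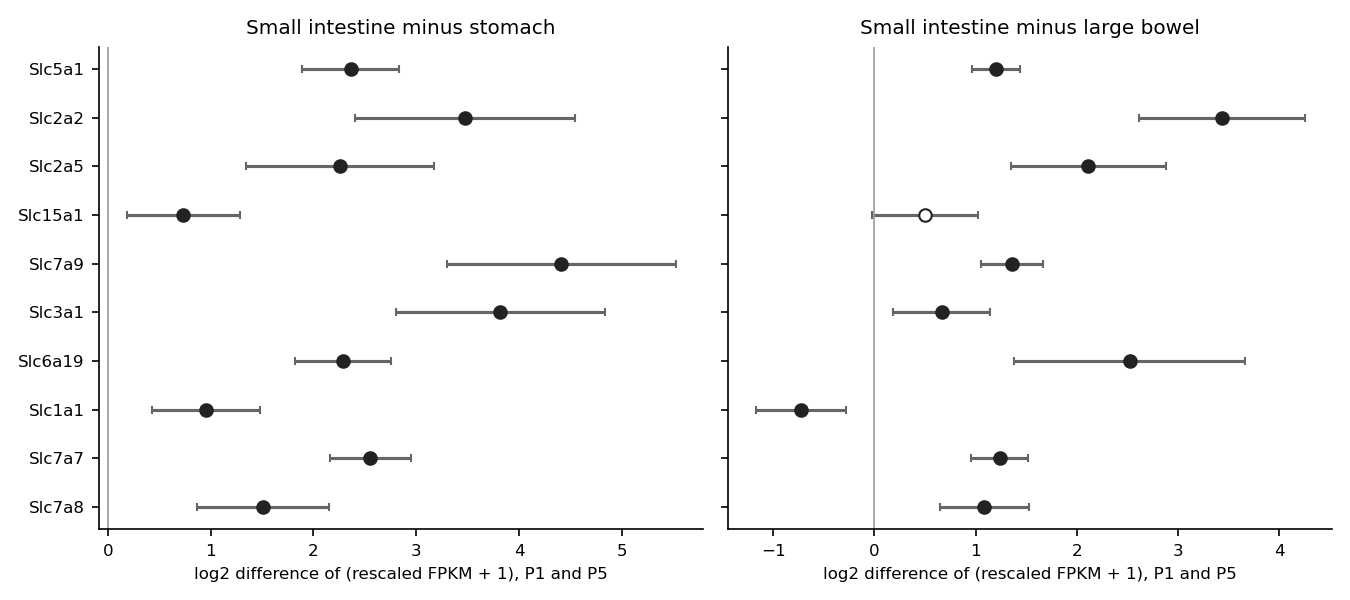
Difference of log2(rescaled FPKM + 1) between small intestine and stomach (left) and between small intestine and large bowel (right) at P1 and P5, with 95% intervals; filled points have an adjusted p under 0.05. Slc7a9 has the largest difference from stomach, at 4.41, and Slc1a1 is the transporter left of 0 against large bowel, at -0.73.

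The rectum pair of P5 was set beside the 4 libraries with colon (the colon pair of P5 and the colon with rectum pair of P1), without a test. Slc15a1 was at 17.1 and 19.2 rescaled FPKM in the rectum (percc1-/- and wild-type) and at 7.97 to 11.7 in the 4 libraries with colon. Slc1a1 was at 3.94 and 5.24 against 2.49 to 3.31. Slc3a1 was at 4.86 and 11.2 against 16.96 to 19.3, and Slc2a2 at 0.0527 and 0.263 against 0.723 to 4.41. The first 2 genes were thus higher in both rectum libraries, and Slc3a1, Slc2a2 and Slc6a19 lower.

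At E14.5, when the whole gut was taken as 1 piece, 9 transporters were listed above 0. Slc2a2 held 3.95 rescaled FPKM in wild-type and 1.86 in percc1-/-, and Slc7a9 held 4.53 and 1.28. Slc5a1 held 2.57 and 1.82, Slc7a7 3.18 and 2.69, and Slc7a8 3.49 and 2.36. Slc2a5, Slc15a1, Slc6a19 and Slc1a1 lay at or under 0.842. With 1 library of each genotype there was no test. Liver markers summed to 141 and 144 FPKM and exocrine pancreas markers to 123 and 142 in these libraries, and the part of those organs in the Slc2a2 level was not tested.

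The upstream sequences of 4 transporters are shown because they span the patterns above: the subunits Slc3a1 and Slc7a9, whose levels were among the most alike, Slc2a2 with the widest sugar contrast, and Slc1a1 with its reverse order. Each is the 250 bases before a start site in RefSeq on GRCm38.p6, 5′ to 3′ on the gene's strand, in lower case. Capitals mark matches on either strand to motifs of intestinal transcription factors. For HNF4 factors these were CAAAGTCCA and AAAGGTCA. For HNF1 factors the search used the partial site GTTAAT. For GATA factors, which bind promoters of many absorptive genes, it used AGATAA. For the CDX factors, which set intestinal identity, it used TTTATT, and the other common form of that motif was searched as well, namely TTTATG.
Slc3a1 (chr17:85028097-85028346, plus strand): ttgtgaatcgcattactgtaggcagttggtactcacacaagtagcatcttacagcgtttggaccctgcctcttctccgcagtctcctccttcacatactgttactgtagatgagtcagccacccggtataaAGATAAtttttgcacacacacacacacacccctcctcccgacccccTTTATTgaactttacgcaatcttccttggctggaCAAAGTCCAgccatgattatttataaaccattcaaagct
Slc7a9 (chr7:35448842-35449091, plus strand): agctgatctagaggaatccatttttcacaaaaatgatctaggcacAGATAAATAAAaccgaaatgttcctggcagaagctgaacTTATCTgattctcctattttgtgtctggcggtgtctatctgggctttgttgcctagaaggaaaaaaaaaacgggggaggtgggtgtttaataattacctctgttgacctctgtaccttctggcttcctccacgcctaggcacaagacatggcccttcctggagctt
Slc2a2 (chr3:28697653-28697902, plus strand): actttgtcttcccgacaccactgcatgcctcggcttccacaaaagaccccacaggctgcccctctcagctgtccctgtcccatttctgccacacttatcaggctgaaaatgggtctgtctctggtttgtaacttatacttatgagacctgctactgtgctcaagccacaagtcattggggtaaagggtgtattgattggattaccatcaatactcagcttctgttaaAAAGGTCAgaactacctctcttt
Slc1a1 (chr19:28834885-28835134, plus strand): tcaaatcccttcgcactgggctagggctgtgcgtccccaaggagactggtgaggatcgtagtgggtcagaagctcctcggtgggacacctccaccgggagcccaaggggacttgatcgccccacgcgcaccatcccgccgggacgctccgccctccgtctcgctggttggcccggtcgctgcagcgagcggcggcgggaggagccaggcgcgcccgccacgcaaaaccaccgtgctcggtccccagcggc

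CAAAGTCCA was found 39 bases before the start of Slc3a1 and in 0.384% of 32851 promoter windows of this length, and in 1 of the 10 transporters. AAAGGTCA was found 23 bases before the start of Slc2a2, in 1.34% of windows and again in 1 of the 10. AGATAA was in at least 1 window each of Slc7a9, Slc3a1 and Slc7a7 and in 9.99% of all windows. TTTATT was in at least 1 window each of Slc7a9, Slc3a1 and Slc7a8 and in 18.1%. GTTAAT was found in Slc7a7 alone of the 10 and in 6.43% of windows, and TTTATG in 0 of the 10 and 10.8%. The percentages are of windows and not of genes. Slc7a7 and Slc7a9 have more than 1 window each, so a count of genes cannot be set against these percentages directly. Slc7a9 has 2 start sites, and the matches are in the window of the first, which is shown; the window of the second, with 52.4% G and C, holds none. In the first a match to AGATAA and one to the reverse of TTTATT overlap by a single base. The window of Slc1a1 holds no match and has 70.4% G and C, against 45.6% for Slc3a1, 44.4% for Slc7a9 and 47.2% for Slc2a2, where the quartiles over all windows are 45.2% and 61.2%. A match of letters is a description and not a bound site.

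With age, Slc1a1 was the transporter that rose in the small intestine. It held 0.580 and 2.09 rescaled FPKM in the top part at P1 (wild-type and percc1-/-), 1.96 and 1.07 in the bottom part at P1, 0.858 and 1.68 in the top part at P5, and 2.12 and 3.13 in the bottom part at P5. Later libraries held 3.61 and 5.13 in the bottom part at P10, 3.21 and 6.503 in the top part at P15, and 18.9 and 12.5 in the bottom part at P20. Every library of P10 to P20 was above every library of P1 and P5. The means were 8.31 ± 6.20 (SD, n = 6) and 1.68 ± 0.83 (n = 8), a log2 difference of 1.53 ± 0.31 with part and genotype as covariates (adjusted p = 0.0156, limma). Over all genes 3.46% were called higher and 2.46% lower at the later ages. The call was lost without the P1 bottom pair (adjusted p = 0.0898), without the P15 top pair (0.0995), in wild-type libraries (log2 difference 1.51, adjusted p = 0.144) and with 1 value per region and stage (0.0991). The count of all genes called fell from 756 to 120 in wild-type libraries and to 56 with 1 value per region and stage.

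The other 9 transporters did not pass between the later and earlier ages, with log2 differences from -0.23 for Slc6a19 to 0.02 for Slc5a1 and 0 of them at an unadjusted p under 0.05 (limma). Their 95% intervals all lay between -0.96 (Slc2a5) and 0.80 (Slc2a5). Single ages of the bottom part were unlike each other. Slc2a2 held 21.6 and 20.6 rescaled FPKM at P1 (wild-type and percc1-/-), 19.9 and 8.23 at P5, 11.2 and 6.21 at P10, and 23.9 and 21.0 at P20. Slc2a5 held 3.53 and 6.11, 1.73 and 1.34, 1.503 and 2.44, then 9.60 and 8.57 at the same ages. Slc15a1 held 18.5 and 22.3, 16.5 and 8.07, 11.9 and 9.40, then 53.9 and 18.7. For these 3 genes the lowest wild-type value of the bottom part was that of P10.

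At P20 the mean of each of the 10 transporters in bottom small intestine was above its mean over P1, P5 and P10, and 0 of 10 passed the test with 2 libraries against 6. The share of all genes called was 0.0389% higher and 0.00777% lower, and the median difference was 0.64 for the 10 against 0.00 over all genes. At an unadjusted p under 0.05, where 963 of all 12863 genes tested were higher and 835 lower, 5 of 10 were higher (limma): Slc1a1 (2.18 ± 0.40, adjusted p = 0.113), Slc2a5 (1.53 ± 0.41, adjusted p = 0.199), Slc15a1 (1.17 ± 0.39, adjusted p = 0.252), Slc5a1 (0.84 ± 0.27, adjusted p = 0.239) and Slc7a9 (0.53 ± 0.17, adjusted p = 0.239). In wild-type libraries the Slc1a1 difference was 2.52, with 1 library of P20, so that the spread at P20 could not be measured. Without the pairs with other organs' markers, which leaves P20 against P10, 0 of 10 passed and all 10 differences were above 0, from 0.36 for Slc7a7 to 1.78 for Slc2a5. Enterocyte markers summed to 796 FPKM in the wild-type P20 library, the highest of the small intestine, and to 725 in its percc1-/- pair; their part in these values was not tested. Khk, which phosphorylates fructose inside the cell, was higher at P20, at 31.0 ± 2.59 (SD, n = 2) against 12.9 ± 1.39 (n = 6) rescaled FPKM (log2 difference 1.21 ± 0.13, adjusted p = 0.0279, limma). That call was lost without the P5 bottom pair, with 1 value per region and stage, and without the pairs with other organs' markers, settings in which 0 genes of all tested were called.

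**Figure D4:**
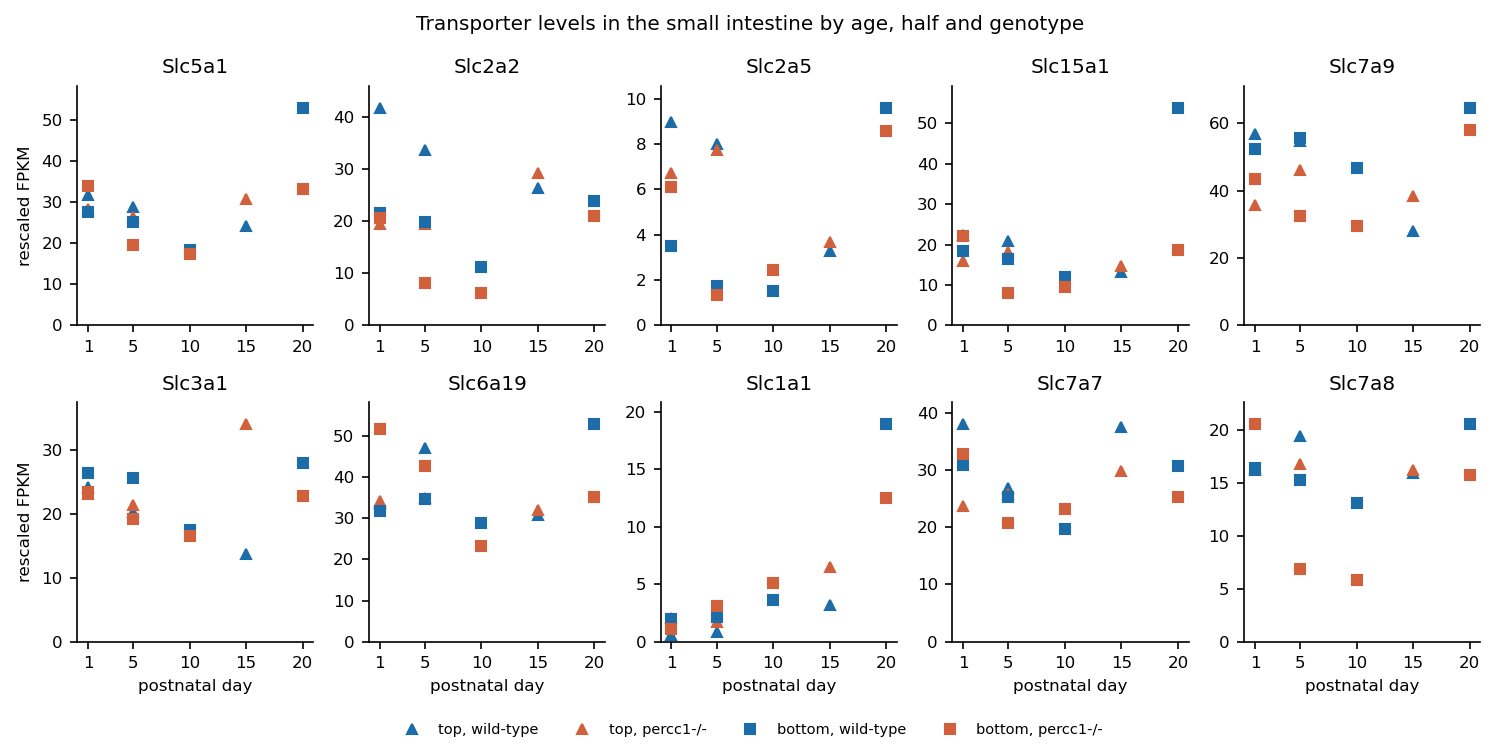
Rescaled FPKM of each transporter (vertical axis, own scale per gene, from 0) against postnatal day in the 14 small intestine libraries; triangles are the top part, squares the bottom part, blue wild-type and orange percc1-/-. Slc1a1 is at or under 3.13 at P1 and P5 and at 12.5 and 18.9 at P20, and the wild-type P20 library of Slc15a1 stands at 53.9.

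Between P1 and P5 0 of 10 transporters passed, where 0% of all genes were called in either direction. One had an unadjusted p under 0.05 (limma): Slc7a7, with 31.4 ± 5.92 rescaled FPKM at P1 and 24.7 ± 2.71 at P5 (SD, n = 4 each, log2 difference -0.32 ± 0.13, adjusted p = 0.547). The median difference of the 10 was -0.30, against 0.01 over all genes.

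Top and bottom small intestine could be compared at P1 and P5 alone, and 0 of 10 transporters passed, with 0.00783% of all genes called higher and 0% lower in the top part. Slc2a5 had the largest difference. It held 8.98, 6.71, 7.995 and 7.73 rescaled FPKM in the top part (P1 wild-type, P1 percc1-/-, P5 wild-type, P5 percc1-/-) and 3.53, 6.11, 1.73 and 1.34 in the bottom part. The 4 top libraries were above the 4 bottom libraries, by 1.22 ± 0.29 log2 units (unadjusted p = 0.00446, adjusted p = 0.639, limma). Slc2a2 was also at an unadjusted p under 0.05 (0.68 ± 0.20, adjusted p = 0.667, limma), with 41.8 and 33.7 in the wild-type top libraries and 19.4 in both percc1-/- top libraries against 8.23 to 21.6 in the bottom part. The wild-type top libraries also carried the most exocrine pancreas RNA of the small intestine, with 13 markers summing to 196 and 255 FPKM against 32.04 and 30.6 in percc1-/-. The 3 islet markers summed to 11.1 and 15.9 FPKM in them, against 0.326 and 1.68 in percc1-/-. The part of pancreas RNA in the Slc2a2 value was not tested.

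The study's main contrast, percc1-/- against wild-type, called 0 of the 10 transporters. Over all 16 pairs 0.382% of genes were called higher and 0.489% lower, and 0 of 10 transporters had an unadjusted p under 0.05 (limma with the pair as block). Their log2 differences ran from -0.22 for Slc15a1 to 0.17 for Slc1a1, with a median of -0.04 against 0.00 over all genes. The 95% intervals lay between -0.67 and 0.56.

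In the 7 pairs of small intestine 0 of 10 transporters passed, with 0.0392% of all genes called higher and 0.0783% lower. Slc2a2 and Slc7a9 had an unadjusted p under 0.05, as did 665 genes higher and 619 lower of all 12766 tested. The wild-type libraries held 11.2, 23.9 and 41.8 rescaled FPKM of Slc2a2 (lowest, median, highest) and the percc1-/- libraries 6.21, 19.4 and 29.3, so the groups overlapped. The percc1-/- library was the lower one in 6 of 7 pairs, with a log2 difference of -0.55 ± 0.17 (95% interval -0.96 to -0.15, unadjusted p = 0.00827, adjusted p = 0.29, limma). Slc7a9 held 28.0, 54.8 and 64.6 in wild-type and 29.4, 38.4 and 58.0 in percc1-/-, lower in 6 of 7 pairs (-0.32 ± 0.13, unadjusted p = 0.0374, adjusted p = 0.474, limma). Without the 4 pairs that differ in markers of other organs the differences were -0.27 for Slc2a2 and -0.12 for Slc7a9. With values corrected for the compressed scale they were -0.69 and -0.78 (adjusted p = 0.303 for both, limma). That correction assumes a ceiling of 1 fragment per transcript base, which is not a fixed limit here, and caps the estimate at 0.95. The highest Slc7a9 estimate in small intestine, 0.971, lay above the cap, so its corrected level was set by the cap. The percc1-/- library had more estimated fragments in 6 of 7 pairs; the part of depth in these differences was not tested.

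Single pairs of small intestine held larger differences, which have no replicate. Slc15a1 stood at 18.7 rescaled FPKM in percc1-/- and 53.9 in wild-type bottom small intestine at P20, and at 8.07 and 16.5 at P5. Its difference over the 7 pairs was -0.43 ± 0.19 (adjusted p = 0.499, limma) and -0.26 without the P20 pair. Slc3a1 stood at 34.2 in percc1-/- and 13.7 in wild-type top small intestine at P15, the widest gap of that gene, and was within 0.40 log2 units in the other 6 pairs. Slc7a8 stood at 5.82 and 13.1 in the bottom part at P10 and at 6.87 and 15.3 at P5. In the P20 pair all 10 transporters were lower in percc1-/-, with a median log2 ratio of -0.33, and in the P15 pair 9 of 10 were higher, with a median of 0.14. Enterocyte markers summed to 725 FPKM in percc1-/- and 796 in wild-type at P20, and to 692 and 570 at P15. In the P10 pair they summed to 583 and 460, and 3 of 10 transporters were higher. The part of enterocyte content was not tested, and the share of all genes with each direction in a pair was not counted.

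Whether the genotype difference changed with age was tested by an interaction term, and 0 of 10 transporters passed, with 0% of all genes called in either direction and 0 of 10 transporters at an unadjusted p under 0.05 (limma). In the stomach 6 transporters passed the filter on low values (a mean of at least 1) and 0 of 6 passed the test, with 0.00754% of all genes called higher and 0.0151% lower and 0 of 6 at an unadjusted p under 0.05. Slc2a2, Slc2a5, Slc3a1 and Slc1a1 were too low to be tested there. The intervals in the stomach were wide, from -1.13 to 2.14 for Slc7a9 (0.51 ± 0.59, limma), which held 9.43 in the percc1-/- library at P1 and at most 0.885 in the other 4 percc1-/- libraries.

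**Figure D5:**
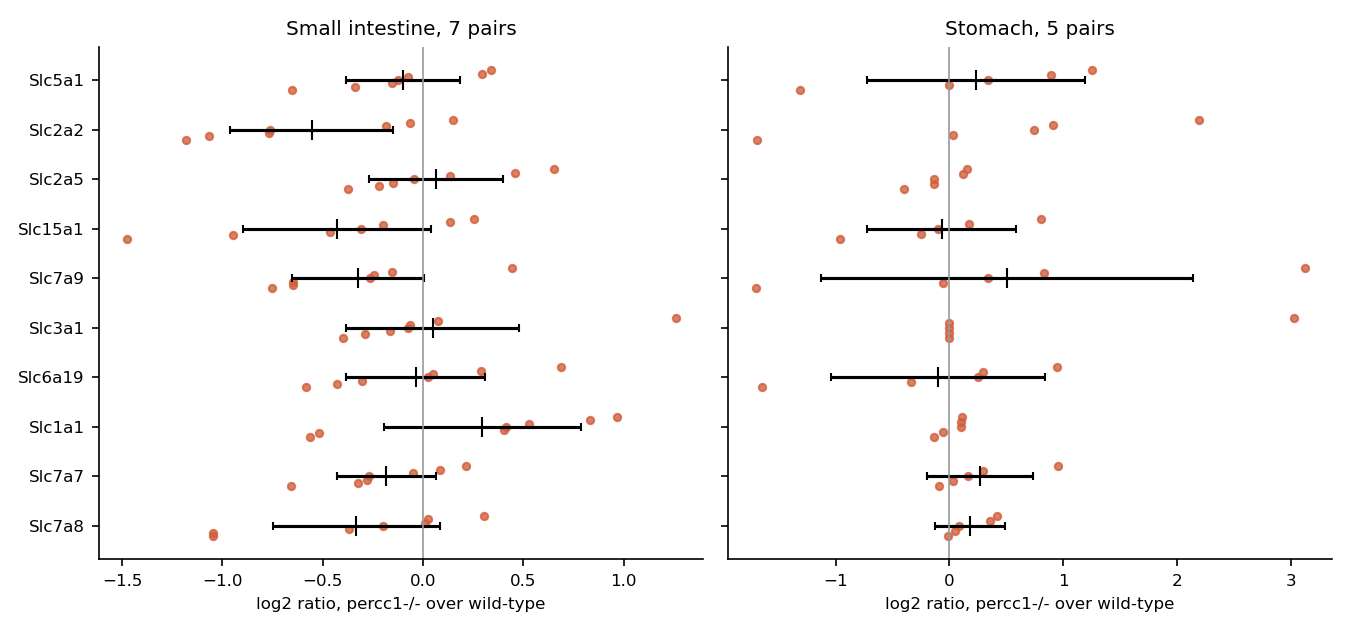
Log2 ratio of percc1-/- over wild-type (rescaled FPKM + 1) for each transporter in each pair of small intestine (left) and stomach (right); each orange point is 1 pair, and black bars are the fitted difference with its 95% interval for the genes tested. The interval of Slc2a2 in small intestine is -0.96 to -0.15 before adjustment over all genes, and the stomach points of Slc7a9 and Slc3a1 above 3 are the P1 pair.

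Across all 32 libraries the transporters' levels followed each other, as a description of libraries that share organs, depth and tissue make-up. Pearson's r of log2(rescaled FPKM + 1) ran from 0.36 (Slc2a5 and Slc1a1) to 0.96 (Slc7a9 and Slc3a1), with a median of 0.76 over the pairs of genes. Within the 14 small intestine libraries the median was 0.51. Slc5a1 and Slc15a1 were the most alike there (0.93), and Slc1a1 and Slc2a2 the least (-0.22). Of 13079 genes compared over the 32 libraries, those most like Slc7a9 were Gpr128, Il22ra1 and Clrn3 (0.98 each), and those most like Slc3a1 were Ostb (0.99), Guca2b and Mep1b (0.98 each). Guca2b, Ms4a10 and Slc34a2 were most like Slc5a1 (0.97 each), and 1200009I06Rik, Agmat and Slc25a15 most like Slc2a2 (0.96 each). Slc6a19 was closest to Agpat9, Bst1 and Clec2e (0.96, 0.96 and 0.95), and Slc7a7 to Gcnt4, Gda and Slc30a2 (0.96 each). The remaining 4 had looser companions: Mall and Slc30a1 for Slc15a1 (0.91 and 0.89), Pcyt1a, Apol9b and Apol9a for Slc2a5 (0.90 each), Cyp4f40, Relb and Prss30 for Slc1a1 (0.92, 0.91 and 0.90), and Optn, 1810014F10Rik and Slc9a3r1 for Slc7a8 (0.90, 0.89 and 0.89).

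Genes of the same processes showed which of these organ differences were shared. Of 13 measured partners and brush border peptidases 12 were higher in small intestine than in stomach and 9 than in large bowel, and 0 were lower; Anpep, an aminopeptidase, stood at 41.1 ± 5.05 rescaled FPKM in small intestine, 14.4 ± 2.90 in stomach and 13.2 ± 6.05 in large bowel. Of 14 regulators of intestinal genes 10 were higher and 1 lower than in stomach, with Hnf4a at 32.1 ± 2.92 against 10.8 ± 1.60 and Cdx2 at 20.3 ± 2.199 against 1.25 ± 2.12 (adjusted p = 1.08e-06 and 2.03e-05, limma), and 11 were higher and 0 lower than in large bowel. Of 8 sugar-handling genes 5 were higher and 1 lower than in stomach, and 5 higher and 2 lower than in large bowel. Other transporters of the same substrates were split: of 40 tested against stomach 16 were higher and 12 lower, and of 38 tested against large bowel 13 were higher and 14 lower. Slc6a14, a broad amino acid carrier, was at 24.4 ± 4.74 in large bowel against 3.71 ± 4.03 in small intestine (log2 difference -2.87 ± 0.51, adjusted p = 0.000832, limma). No gene of these 4 lists was called between the genotypes, and over all pairs 13 of 40 other transporters, 4 of 13 partners and peptidases, 1 of 8 sugar-handling genes and 2 of 14 regulators had an unadjusted p under 0.05 (limma), where 817 genes higher and 910 lower of all 13079 tested did.

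On mm9 in GENCODE M1, Slc3a1 (chr17:85427687-85463583, plus strand) lies on the chromosome of the targeted deletion 60251144 bp from its stated end, and overlaps Prepl, a gene of the opposite strand, at its 3′ end. Slc7a7 (chr14:54989128-55032856) and Slc7a8 (chr14:55341053-55400723) lie on the minus strand, and Slc15a1 (chr14:121858841-121904475) lies on the same chromosome and strand. The others are Slc5a1 (chr5:33446868-33505521), Slc2a2 (chr3:28596825-28627278), Slc2a5 (chr4:149493392-149518278), Slc7a9 (chr7:36234056-36251055) and Slc1a1 (chr19:28909539-28988450), all on the plus strand, and Slc6a19 (chr13:73817193-73842313) on the minus strand. Unnamed records over the exons held up to 15.8 FPKM for Slc6a19 (9 of 14 small intestine libraries), 10.7 for Slc5a1 (3 of 14) and 10.1 for Slc7a9 (7 of 14). For Slc1a1 they held 7.55 FPKM in the wild-type and 2.54 in the percc1-/- bottom library of P20, beside 18.7 and 12.1 in the named records, and none in the other 12 small intestine libraries. In stomach those of Slc6a19 held up to 4.69 FPKM (6 of 10 libraries), beside a median of 3.21 in the named records. These were not added to the levels above. At 10 rescaled FPKM or more the deposited 95% bounds lay 4.17% to 17.04% from the value (median 7.60%, 140 values), and at 1 to 10 the median was 17.3%.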

How the data were processed

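The authors deposited 1 table of FPKM per library with 95% bounds. TopHat2 2.0.13, SAMtools 0.1.18, Cufflinks 2.2.1 and mm9 are named in the submitters' processing notes, and libraries were stranded and depleted of ribosomal RNA per the labels' protocols. FPKM were divided by 1 factor per library, the median ratio over 10023 genes. Differences were fitted with limma 3.58.1 (R 4.3.3, trended robust prior) on log2(rescaled FPKM + 1), a pseudocount of 1, restricted to genes whose mean was 1 or more, with Benjamini-Hochberg adjustment over all genes tested and calls under 0.05. The 95% intervals of differences used the residual degrees of freedom of each fit, while the p-values used the moderated ones of limma. An interval can thus hold 0 at an unadjusted p under 0.05 (limma). Slc7a9 for genotype in small intestine is such a case, with an interval of -0.651 to 0.003. Scripts were tested on simulated data. Genotype fits used the pair of the same region and stage as block, which comes from the labels. Fragments were estimated from the deposited bounds and cover counting error only. All 10 members entered every comparison in which they passed the filter, and the text does not name each of them in every comparison. Of the lists, up to 4 genes a direction by adjusted p were eligible to be named. The partners Slc3a2 and Tmem27 were eligible as well, the latter too low to test. One gene is not reported here. Members and lists were chosen with earlier results of these data known. Alternatives were the pseudocount, the filter, the scaling, the prior, the block, wild-type libraries alone and leaving out each pair. Chosen after seeing the data were a correction for the compressed scale, leaving out pairs with other organs' markers, and 1 value per region and stage.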

Additional observations from a re-analysis of the deposited data

Results flagged for a closer look

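Of 39 combinations of a transporter and a group of 4 to 10 libraries, 7 held a library far from the rest by Dixon's criterion. Each group was 1 genotype of 1 organ and mixed ages and parts, so its libraries are not replicates. The rate of about 1 in 20 that chance flags among replicates therefore does not apply, and the part of age or region was not tested. In wild-type small intestine the bottom part at P20 held 53.86 rescaled FPKM of Slc15a1 and 18.94 of Slc1a1, against 11.9 to 22.3 and 0.580 to 3.61 in the other 6 libraries. The top part at P15 held 27.97 of Slc7a9, against 46.7 to 64.6.

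In percc1-/- stomach the P1 library held 9.425 rescaled FPKM of Slc7a9 and 7.162 of Slc3a1, against 0.0398 to 0.885 and values listed at 0. In wild-type stomach the P15 library held 2.643 of Slc2a2 and 2.763 of Slc7a9, against 0.0793 to 0.209 and 0.0578 to 0.246. Enterocyte markers summed to 251 FPKM in that P15 library, the highest of the stomach, and to 199 in the P1 library.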

How the results depend on the processing

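Under the alternative settings 1438 values kept their direction and their side of the threshold, 86 changed sign (69 of them without 1 pair), 19 lost a call, 3 gained one and 5 counts moved, and no call between genotypes appeared. The settings of the filter, the prior, the block and 1 value per region and stage could not change a direction. The reversals named below are of differences that passed no test, and not all of these were near 0. For P5 against P1, Slc2a5 went from -0.575 to 0.014 without the P1 bottom pair. Slc5a1 for genotype in stomach went from 0.235 to -0.659 without the pairs with other organs' markers. The cause of the reversals was not tested. Levels under 1 FPKM are limited by depth.

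Without the replicate block the genotype differences cannot change, as each pair holds 1 library of each genotype. All 40 genotype results were without a call with the block and stayed so without it. Slc2a2 in small intestine thus stayed at -0.55 (adjusted p = 0.841, limma). Without the block the count over all genes went from 114 to 44 over all pairs, from 15 to 21 in small intestine and from 3 to 1 in stomach. The count over all genes ranged over the settings from 3 to 184 over all pairs (3 without the pairs with other organs' markers), from 2 to 23 in small intestine, from 1 to 8 in stomach, from 0 to 3 for genotype by stage, from 0 to 53 for top against bottom (1 in the reported fit), from 56 to 847 for later against earlier ages, from 0 to 226 for P20 (6 in the reported fit, 226 in wild-type libraries), from 0 to 2 for P5 against P1, from 3300 to 6942 against stomach (5757) and from 2690 to 5930 against large bowel (4943).

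Values that changed sign outside the repeats that leave out a pair were, for genotype without the pairs with other organs' markers, Slc5a1 (-0.203), Slc2a5 (-0.022), Slc3a1 (-0.042) and Slc7a7 (-0.037) over all pairs and Slc5a1 (-0.659) in stomach. Correction for the compressed scale gave Slc6a19 0.017 for genotype in small intestine, and the FPKM as deposited gave Slc5a1 0.113 for genotype by stage. In wild-type libraries Slc6a19 was 0.256 for top against bottom. For later against earlier ages, Slc15a1 was 0.051 in wild-type libraries and 0.036 with the correction, and Slc7a7 -0.015 and -0.027. For P5 against P1, Slc7a9 was 0.044 as deposited, 0.005 with equal sums, 0.015 in wild-type libraries and 0.122 with the correction, and Slc7a8 was 0.075 in wild-type libraries.

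The count of transporters called for later ages went from 1 to 0 in wild-type libraries and with 1 value per region and stage, and to 0 to 1 without each pair in turn. For P20 it went from 0 to 1 in wild-type libraries.

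Leaving out each pair in turn moved the genotype differences over all pairs to -0.019 to 0.152 for Slc5a1, -0.002 to 0.069 for Slc2a5, -0.066 to 0.206 for Slc3a1 and -0.022 to 0.086 for Slc7a7. In small intestine the ranges were -0.032 to 0.139 for Slc2a5, -0.152 to 0.124 for Slc3a1 and -0.158 to 0.054 for Slc6a19. In stomach they were -0.020 to 0.622 for Slc5a1, -0.283 to 0.158 for Slc15a1 and -0.358 to 0.291 for Slc6a19. For genotype by stage they were -0.286 to 0.212 for Slc5a1, -0.011 to 0.361 for Slc2a5, -0.556 to 0.249 for Slc15a1, -0.043 to 0.730 for Slc3a1, -0.421 to 0.277 for Slc1a1, -0.072 to 0.202 for Slc7a7 and -0.504 to 0.059 for Slc7a8.

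For top against bottom the ranges were -0.026 to 0.295 for Slc5a1, -0.100 to 0.703 for Slc15a1, -0.079 to 0.236 for Slc7a9, -0.250 to 0.071 for Slc6a19, -0.074 to 0.193 for Slc7a7 and -0.162 to 0.755 for Slc7a8. For later against earlier ages they were -0.295 to 0.297 for Slc5a1, -0.430 to 0.228 for Slc2a2, -0.674 to 0.522 for Slc2a5, -0.466 to 0.286 for Slc15a1, -0.400 to 0.079 for Slc7a9, -0.235 to 0.035 for Slc3a1, -0.141 to 0.164 for Slc7a7 and -0.345 to 0.132 for Slc7a8. For P5 against P1 they were -1.165 to 0.014 for Slc2a5, -0.758 to 0.045 for Slc15a1, -0.163 to 0.151 for Slc7a9, -0.069 to 0.251 for Slc6a19 and -0.775 to 0.141 for Slc7a8.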
